A study of Mus musculus with 43 samples.

Results

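Mast cells and basophils carry proteases in their granules and the high-affinity IgE receptor on their surface, and 10 genes for these products were followed in whole mouse lung. The genes were the proteases Mcpt1, Mcpt2, Mcpt4, Mcpt8, Cma1, Tpsab1, Tpsb2 and Cpa3 and the receptor chains Fcer1a and Ms4a2. They were found by the NCBI Gene ID behind each symbol, and all 10 were among the 24475 genes of the count table. Whole lung RNA of 43 samples, taken here as 1 mouse each, had been sequenced. The mice were females of a 129S6/C57BL/6 hybrid background, given as 8 to 12 weeks old in the design text. That cannot be the age at harvest of groups exposed to mite for 19 weeks. Per the design text, the mice used to assess the antibodies carried human sequence in place of mouse Il4, Il33 and the ectodomain of Il4ra, and house dust mite extract (HDM) was given intranasally 3 times a week. The labels give 7 groups: saline without antibody (n = 5), HDM for 11 weeks (n = 6) or 19 weeks (n = 7) without antibody, and 19 weeks of HDM with isotype antibody (n = 7), anti-IL-33 plus isotype (n = 6), anti-IL4Ra plus isotype (n = 7) or anti-IL-33 plus anti-IL4Ra (n = 5). The anti-IL-33 antibody was itepekimab and the anti-IL4Ra antibody dupilumab. The design text speaks of 4, 15 or 19 weeks of HDM, while the labels give 11 or 19, and the labels were followed. It names antibody starts at day -3, week 4 and week 11, and the labels do not say which of them applied, nor how long saline was given.

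Mouse mast cells are commonly described in 2 forms. Mucosal mast cells appear in the epithelium during type 2 inflammation and store the chymases Mcpt1 and Mcpt2, whereas connective tissue mast cells sit around airways, vessels and in fat before any exposure and store Mcpt4, Cma1, tryptases and Cpa3. Both forms bind IgE through a receptor made of an alpha chain (Fcer1a), a beta chain (Ms4a2) and a shared gamma chain. Basophils are blood cells with the same receptor, and Mcpt8 is their marker protease. IL-33 acts on mast cells through the receptor Il1rl1, and IL-4Rα is the receptor chain through which IL-4 and IL-13 signal.

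Reads of 33 cycles were counted, so the sequences of the related chymases set how well their counts can be told apart. The chymase genes lie on chromosome 14 of GRCm38 (mm10): Mcpt1 at chr14:56017964-56020391 and Mcpt2 at chr14:56021584-56044635 on the plus strand, and Mcpt4 at chr14:56059744-56062310, Mcpt8 at chr14:56082163-56085499 and Cma1 at chr14:55941451-55944675 on the minus strand. The coding sequences of Mcpt1 and Mcpt2 were identical at 80.4% of 741 aligned positions, fewer than Mcpt1 and Mcpt4 (86.5%). Of the 33-base words in the longest transcript, 94.5% for Mcpt1 and 95.6% for Mcpt2 occurred in the transcripts of no other gene. Mcpt1 shared 28 of its 982 words with Mcpt2. The longest run that Mcpt1 and Mcpt2 share in their coding sequence, bases 34 to 82, and the stretch in which they differ most, bases 260 to 319, are shown because only reads inside the former kind of run are ambiguous. Capitals mark the 27 bases at which the stretches differ.
Shared run: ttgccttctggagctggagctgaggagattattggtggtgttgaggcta
Mcpt1 stretch: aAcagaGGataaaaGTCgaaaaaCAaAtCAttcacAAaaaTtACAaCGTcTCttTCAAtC
Mcpt2 stretch: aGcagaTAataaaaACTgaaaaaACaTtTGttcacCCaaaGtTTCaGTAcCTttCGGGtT

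The upstream regions of Mcpt1 and Mcpt4 are shown because they were the most alike among the members with such an entry. These genes are typical of the mucosal and the connective tissue form and had different values across the groups. Whether upstream sequence bears on these values was not tested. Over the 250 bases before the gene start in RefSeq (GRCm38.p6) they were identical at 81.5% of 254 aligned positions. The other 20 pairs among the 7 member genes with such an entry reached 32.9% to 45.4%. Both held the GATA-type motif TGATAA, in capitals, 99 bases (Mcpt1) and 103 bases (Mcpt4) before the start. TGATAA or its reverse complement occurred in 7.9% of 32851 upstream regions of this length. Mcpt1 is the plus strand of chr14:56017714-56017963, and Mcpt4 the minus strand of chr14:56062311-56062560.
Mcpt1 upstream: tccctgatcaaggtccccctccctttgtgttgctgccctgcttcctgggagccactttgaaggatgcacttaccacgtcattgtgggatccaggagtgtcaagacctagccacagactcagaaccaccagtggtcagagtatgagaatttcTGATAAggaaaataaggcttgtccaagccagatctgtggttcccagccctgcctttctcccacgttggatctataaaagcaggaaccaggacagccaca
Mcpt4 upstream: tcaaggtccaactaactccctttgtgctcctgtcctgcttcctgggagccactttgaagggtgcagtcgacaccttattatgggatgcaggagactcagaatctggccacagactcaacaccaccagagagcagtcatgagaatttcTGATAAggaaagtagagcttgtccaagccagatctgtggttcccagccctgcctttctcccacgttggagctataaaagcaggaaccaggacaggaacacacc

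The related motif AGATAA, searched on both strands, was found in Cpa3 (46 bases before the start), Fcer1a (92) and Ms4a2 (3 matches), and occurred in 10% of all such regions. Mcpt8 and Cma1 had neither motif in their windows. Distances were counted from the start used for each window, which can lie inside the RefSeq gene span. Windows of Ms4a2, Cpa3 and Fcer1a overlapped with their gene spans, and that of Mcpt8 (chr14:56085198-56085447) lay wholly within the one given above. The Ms4a2 matches at -37 and -11 lay inside its gene span.

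The libraries held between 11.9 and 26.7 times 1e+06 counts, and 9 of the 10 genes passed the filter on low counts, the exception being Mcpt8. Values are counts per 1e+06 counts (CPM) after TMM scaling. Differences are log2 fold changes with their standard error, and an adjusted p under 0.05 in edgeR's quasi-likelihood test over 15979 genes counts as a change. Lung markers summed to 11800 CPM or more in every library. Markers of squamous epithelium exceeded 1000 CPM in 2 libraries, Saline replicate 3 (12500 CPM) and replicate 1 of 19 weeks of HDM (3870 CPM). Fat markers summed to 1250 CPM in Saline replicate 3 and to 518 and 561 CPM in replicates 1 and 8 of the combination, against 7.58 to 137 CPM in the other 40 libraries. In 9 libraries expression rose steeply with transcript GC content (a slope above 0.75), none of them in saline, at 11 weeks or with isotype. The labels do not say that the samples of a group are separate animals, so p-values measure the spread between these samples.

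The mucosal chymases Mcpt1 and Mcpt2 were close to absent in saline lungs and rose in every HDM group. Mcpt1 was at 0.048, 0.0551, 0.0345, 0 and 0.066 CPM in the 5 saline mice, which was 5 counts in all. At 11 weeks of HDM it ran from 5.14 through a median of 8.30 to 20.1 CPM. All 6 mice at 11 weeks exceeded all saline mice, and the difference was 7.71 ± 1.16 (SE, adjusted p = 5.22e-06). At 19 weeks Mcpt1 ran from 0.519 through 2.97 to 6.55 CPM, again with no overlap with saline (6.20 ± 1.12, adjusted p = 5.09e-05). With isotype antibody it ran from 0.415 through 1.63 to 2.30 CPM (5.03 ± 1.11, adjusted p = 0.000707), also without overlap. In whole tissue, fewer cells of a type and less RNA per cell cannot be told apart.

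Mcpt2 showed the same order of groups. It had 3 counts over all saline mice, whose values were 0.048, 0.0551, 0, 0.0389 and 0 CPM. At 11 weeks it ran from 3.36 through 7.46 to 14.7 CPM, at 19 weeks from 0.577 through 2.27 to 15.1 CPM, and with isotype from 0.311 through 1.67 to 3.40 CPM. No mouse of these groups overlapped with saline. The ratio to saline of pooled counts, each relative to pooled library size, was 319 (95% counting interval 109 to 1550) at 11 weeks, 163 (55.4 to 792) at 19 weeks and 68.1 (23 to 333) with isotype. Adjusted p was 7.06e-06, 2.5e-05 and 0.000327 in that order. Replicate 6 held 291 of the 524 counts at 19 weeks, and without it the fitted difference went from 6.91 to 5.90 and was still called (adjusted p = 8.96e-05). Intervals of this kind cover counting error of the pooled counts only and leave out the spread between mice. They also treat reads as independent molecules, which PCR copies are not.

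With Tpsab1, described below, 3 of the 9 members tested were higher than saline at 11 weeks, where 8.65% of all genes tested were called higher and 6.74% lower (15.4% in all). The same 3 members were higher at 19 weeks, where 19.2% of all genes were higher and 15.6% lower (34.8% in all). They were also higher with isotype, where 13% of all genes were higher and 12.4% lower (25.3% in all), and no member was lower in these comparisons. These 3 genes were near 0 in saline and passed the count filter through other groups, so their counts beside the shares of all genes are description only. The median log2 fold change of the 9 members was 0.72, 0.30 and -0.99 in the 3 comparisons, and that of all genes 0.003, 0.011 and 0.006. Summing Mcpt1 and Mcpt2 before the fit gave 7.93 ± 1.15 at 11 weeks (adjusted p = 2.73e-06), a value that does not depend on how shared reads were divided between them.

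**Figure D1:**
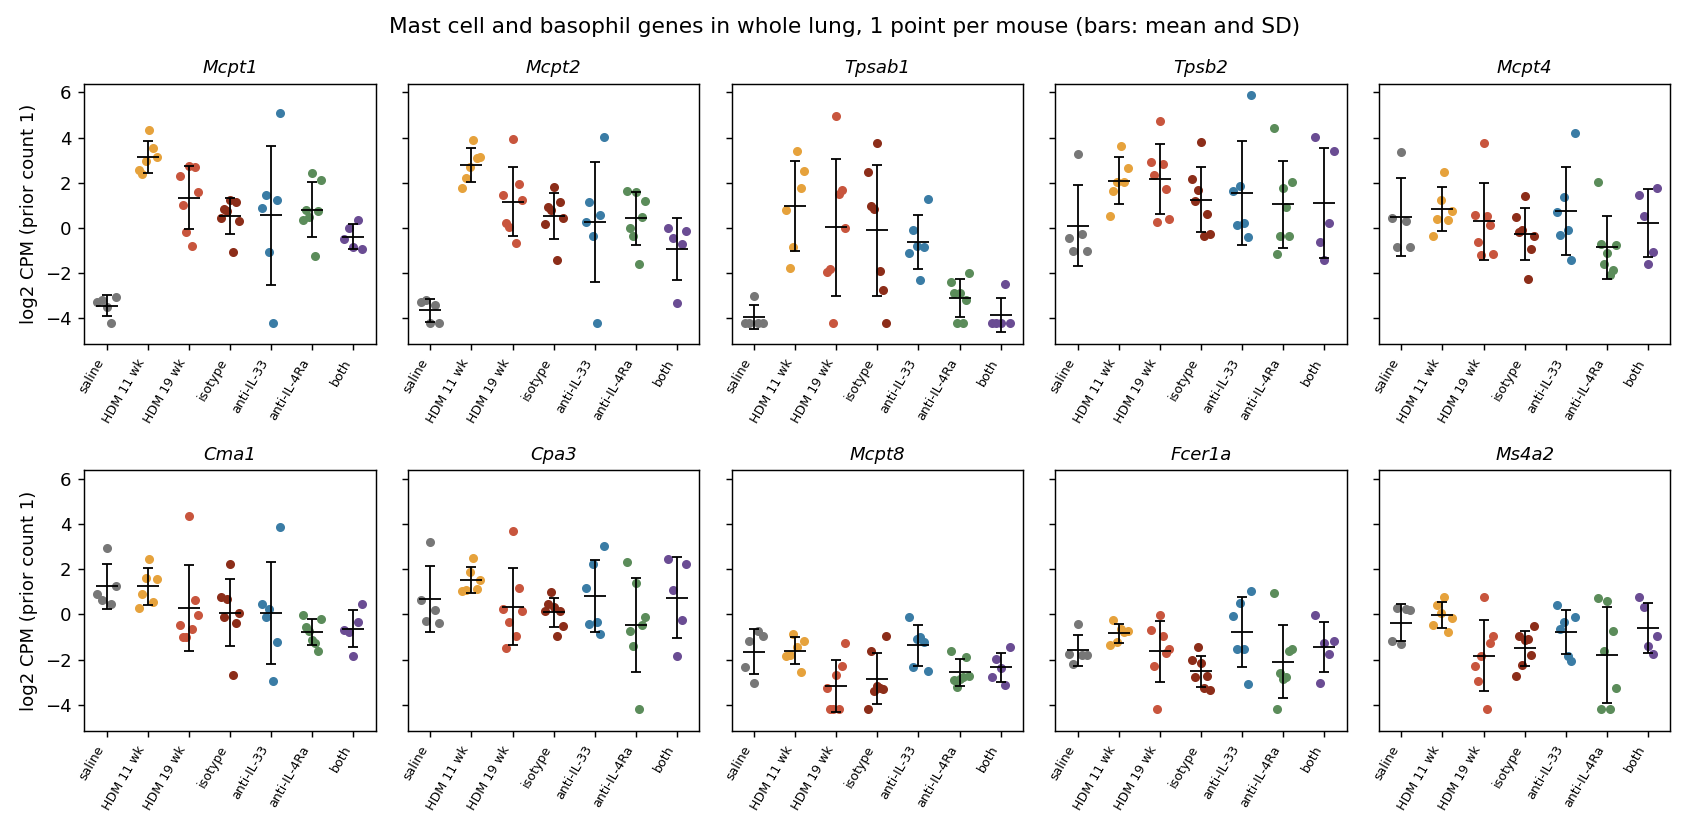
Log2 CPM (prior count of 1) of the 10 genes, 1 point per mouse, in the 7 groups, with horizontal bars at the group mean and error bars of 1 SD. Mcpt1 and Mcpt2 lie apart from saline at 11 weeks of HDM, at 19 weeks and with isotype, Tpsab1 is low in the groups given anti-IL-4Ra, and the remaining genes overlap with saline in all groups except Cma1 in the groups given anti-IL-4Ra.

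Between 11 and 19 weeks of HDM no member was called, and 0.106% of all genes were (0.0876% higher, 0.0188% lower). Mcpt1 was lower at 19 weeks by the values above, with a log2 difference of -1.51 ± 0.69 (unadjusted p = 0.0351, adjusted p = 0.335), the 1 member with an unadjusted p under 0.05. Of all 15979 genes, 2296 had such a p. Mcpt2 differed by -1.02 ± 0.70 (adjusted p = 0.43), and by -2.02 without replicate 6 of 19 weeks (adjusted p = 0.232). DESeq2 and limma voom called 0 members as well. Between isotype and 19 weeks without antibody neither a member nor any other gene was called by edgeR (0% of all genes), DESeq2 and limma voom called 3 genes and 1 gene, none a member, and 341 genes had an unadjusted p under 0.05. Mcpt1 (-1.17 ± 0.69) and Mcpt2 (-1.18 ± 0.69) had adjusted p = 0.977 in edgeR, and without replicate 6 of 19 weeks Mcpt2 differed by -0.18. Fcer1a was the 1 member with an unadjusted p under 0.05 (-1.43 ± 0.69, adjusted p = 0.977).

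The antibodies left Mcpt1 and Mcpt2 above saline. With both antibodies Mcpt1 was at 0.652, 0.932, 0.503, 1.21 and 0.464 CPM and Mcpt2 at 0.932, 0.666, 0.0457, 0.546 and 0.851 CPM. For Mcpt1 all 5 mice exceeded all saline mice (4.02 ± 1.18, adjusted p = 0.0067). Mcpt2 had a ratio of 22.0 to saline (7.02 to 111, adjusted p = 0.00811), and replicate 3 lay within the saline range. These were the 2 of 9 members higher than saline with both antibodies, where 27.8% of all genes were higher and 20.3% lower (48.1% in all). As a count, 2 of 9 is near the share of all genes that were higher. Without the 9 libraries of steep GC slope, which leaves 2 mice in this group, Mcpt2 was no longer called (3.43, adjusted p = 0.147).

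With anti-IL4Ra, Mcpt1 ran from 0.366 through 1.59 to 5.40 CPM and Mcpt2 from 0.274 through 1.32 to 3.07 CPM. Both were above all saline mice in all 7 mice, with adjusted p of 0.000181 and 0.000319. They were the 2 of 9 members higher than saline in this group, where 25.9% of all genes were, and Cma1 was the 1 member lower, where 18.6% were (44.5% in all). Both counts are near those shares. With anti-IL-33, Mcpt1 ran from 0 through 2.02 to 34.4 CPM and Mcpt2 from 0 through 1.28 to 16.4 CPM. The highest values of both came from replicate 7, and replicate 5 had no count of either. Mcpt1, Mcpt2 and Tpsab1 were higher than saline with anti-IL-33 (adjusted p = 1.19e-05, 4.77e-05 and 0.0167), where 25.2% of all genes were higher and 17.9% lower (43.1% in all). As a count, 3 of 9 members is near the share of all genes that were higher. Without replicate 7 the Mcpt1 difference from saline went from 7.21 to 4.97 and all 3 remained called.

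Against isotype, neither Mcpt1 nor Mcpt2 passed the test over all genes in any antibody group. The difference in Mcpt1 was 2.18 ± 0.71 with anti-IL-33 (unadjusted p = 0.00404, adjusted p = 0.246), 0.58 ± 0.69 with anti-IL4Ra (adjusted p = 0.693) and -1.01 ± 0.81 with both (adjusted p = 0.335). Without replicate 7 of anti-IL-33 the first of these became -0.06. The difference in Mcpt2 was 1.12 ± 0.71, -0.04 ± 0.70 and -1.50 ± 0.84 in that order, with adjusted p of 0.349, 0.979 and 0.172. Without replicate 7 of anti-IL-33 the first turned to -0.58. With single antibodies edgeR called no member against isotype, nor any other gene (0% in both comparisons). For anti-IL-33, 2878 genes had an unadjusted p under 0.05, among them Mcpt1, Mcpt4 and Fcer1a, and DESeq2 and limma voom called 17 and 1012 genes, none a member. For anti-IL4Ra, 2242 genes did, among them Tpsab1, and DESeq2 and limma voom called 46 and 12 genes, of which Tpsab1 in DESeq2 was a member.

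The antibody groups were also compared with each other. No member was called between anti-IL4Ra and anti-IL-33 (0% of all genes), between both antibodies and anti-IL-33 (0.0438%) or between both antibodies and anti-IL4Ra (0.119%, with 0.0188% higher and 0.1% lower). Between anti-IL4Ra and anti-IL-33, 409 genes had an unadjusted p under 0.05, and DESeq2 and limma voom called 4 and 725 genes, none a member. Mcpt1 differed between both antibodies and anti-IL-33 by -3.19 ± 0.87 (adjusted p = 0.375), which DESeq2 called (adjusted p = 0.0332). Without replicate 7 of anti-IL-33, at 34.4 CPM, it was -0.95 in edgeR (adjusted p = 1). Members with an unadjusted p under 0.05 numbered 4, 4 and 0 in the 3 comparisons, beside 409, 778 and 1707 of all 15979 genes. An interaction term asked whether adding anti-IL4Ra to anti-IL-33 differed from adding it to isotype. It was -3.77 ± 1.10 for Mcpt1 (adjusted p = 0.995) and -1.53 without that replicate, and neither a member nor any other gene was called in it. Unadjusted p was under 0.05 for Mcpt1, Mcpt2 and Fcer1a, as for 321 genes in all, and DESeq2 and limma voom called 3 and 5521 genes, none a member.

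Ordered by median CPM, Mcpt1 stood highest after 11 weeks of HDM (8.30), then after 19 weeks without antibody (2.97). Anti-IL-33 (2.02), isotype (1.63), anti-IL4Ra (1.59), both antibodies (0.652) and saline (0.048) followed. Of these neighbours that were compared directly, 11 against 19 weeks, anti-IL-33 against isotype, isotype against anti-IL4Ra and anti-IL4Ra against both antibodies (-1.59 ± 0.82, adjusted p = 0.491) did not pass the test. Both antibodies against saline did.

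The tryptases are proteases that cleave after basic residues and are stored with heparin, and the 2 tryptase genes behaved differently. Tpsab1 (chr17:25343245-25345562, minus strand) is listed by RefSeq as a transcribed pseudogene in GRCm38.p6, a C57BL/6J assembly, whereas these mice were 129S6/C57BL/6 hybrids. The labels do not give the Tpsab1 alleles of each mouse, so a mouse's count or share may also follow its genotype, which was not tested. Tpsb2 (chr17:25366308-25368096, plus strand) is protein coding. They shared 7 of the 1257 33-base words of the longest Tpsb2 transcript. Tpsab1 was at 0, 0, 0.0691, 0 and 0 CPM in saline, 2 counts in all. At 11 weeks it ran from 0.236 through 2.51 to 10.4 CPM, at 19 weeks from 0 through 0.923 to 31.4 CPM and with isotype from 0 through 1.75 to 13.5 CPM. All mice at 11 weeks, 6 of 7 at 19 weeks and 6 of 7 with isotype exceeded all saline mice.

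Tpsab1 rose against saline in all 3 groups, with a ratio of 228 (62.7 to 1890, adjusted p = 0.00189) at 11 weeks, 349 (96.2 to 2880, adjusted p = 0.000404) at 19 weeks and 185 (51.0 to 1540, adjusted p = 0.00126) with isotype. The gene passed the count filter through groups other than saline. In fits of the compared groups alone it did not pass the filter in any of these comparisons and was not tested. The ratio at 19 weeks leans on replicate 6, which held 604 of 748 counts, and the gene was still called without it (adjusted p = 0.00301). With anti-IL-33, Tpsab1 ran from 0.148 through 0.512 to 2.40 CPM, above all saline mice in all 6 mice, with a ratio to saline of 49.8 (13.4 to 418).

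Tpsab1 was at or near 0 in the mice given anti-IL4Ra. Alone, this antibody gave values from 0 through 0.0787 to 0.195 CPM, 8 counts over 7 mice, and with anti-IL-33 it gave 0, 0, 0, 0.121 and 0 CPM, 2 counts over 5 mice. Of the 20 HDM libraries without a blocking antibody 16 had more than 3 Tpsab1 counts, and of the 12 libraries with anti-IL4Ra alone or combined 1 had. With both antibodies Tpsab1 was the 1 of 9 members lower than isotype, where 6.32% of all genes were called lower, so the count is near that share. The ratio of isotype to both antibodies was 115 (31.7 to 955), and adjusted p was 0.0155. The call was lost without replicate 1 of the combination (adjusted p = 0.0614), with the replicate number as a block (0.0611), without libraries of steep GC slope (0.135) and in limma voom (0.406). The difference kept its direction in all of these.

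With anti-IL4Ra alone, Tpsab1 differed from isotype by -5.26 ± 1.31 (unadjusted p = 0.000241), which missed the threshold over all genes (adjusted p = 0.182) and passed it in DESeq2 (-5.38, adjusted p = 0.0127). With anti-IL-33 alone the difference was -2.0 ± 1.04 (adjusted p = 0.285). Directly compared, the anti-IL4Ra and anti-IL-33 groups differed by -3.26 ± 1.37 (unadjusted p = 0.0221, adjusted p = 1), and all 6 mice given anti-IL-33 had at least 2 counts. All 5 mice given both antibodies lay below all 6 mice given anti-IL-33, without passing the test (adjusted p = 0.823). A difference between the single antibodies in Tpsab1 was therefore not established.

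The share of Tpsab1 in the summed tryptase counts of a library does not depend on the scaling of libraries. Its median was 45.3% after 11 weeks of HDM, 28.1% after 19 weeks and 36.1% in the isotype group, against 0% in saline. It was 12.3% for anti-IL-33, 2.38% for anti-IL4Ra and 0% for both antibodies. Replicates 1 and 8 of the combination had 0 of 174 and 0 of 134 tryptase counts, which allow a share of up to 1.72% and 2.24%. Replicates 2 and 3 had 0 of 9 and 0 of 7, which allow 33.3% and 42.9%, so that a share as at 19 weeks was not detectable as absent at their depth. Saline replicate 3 had 2 Tpsab1 counts of 280, or 0.714% (exact binomial 95% interval 0.0866% to 2.56%). Fat markers were high in Saline replicate 3 and in replicates 1 and 8 of the combination, as given above, and their part in the shares was not tested. The highest share with anti-IL4Ra, 16.7%, came from 1 of 6 counts (0.421% to 64.1%). Shares were not uniform under HDM either: they reached 7.14% to 54.5% at 11 weeks, and 0% to 54.3% at 19 weeks.

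**Figure D2:**
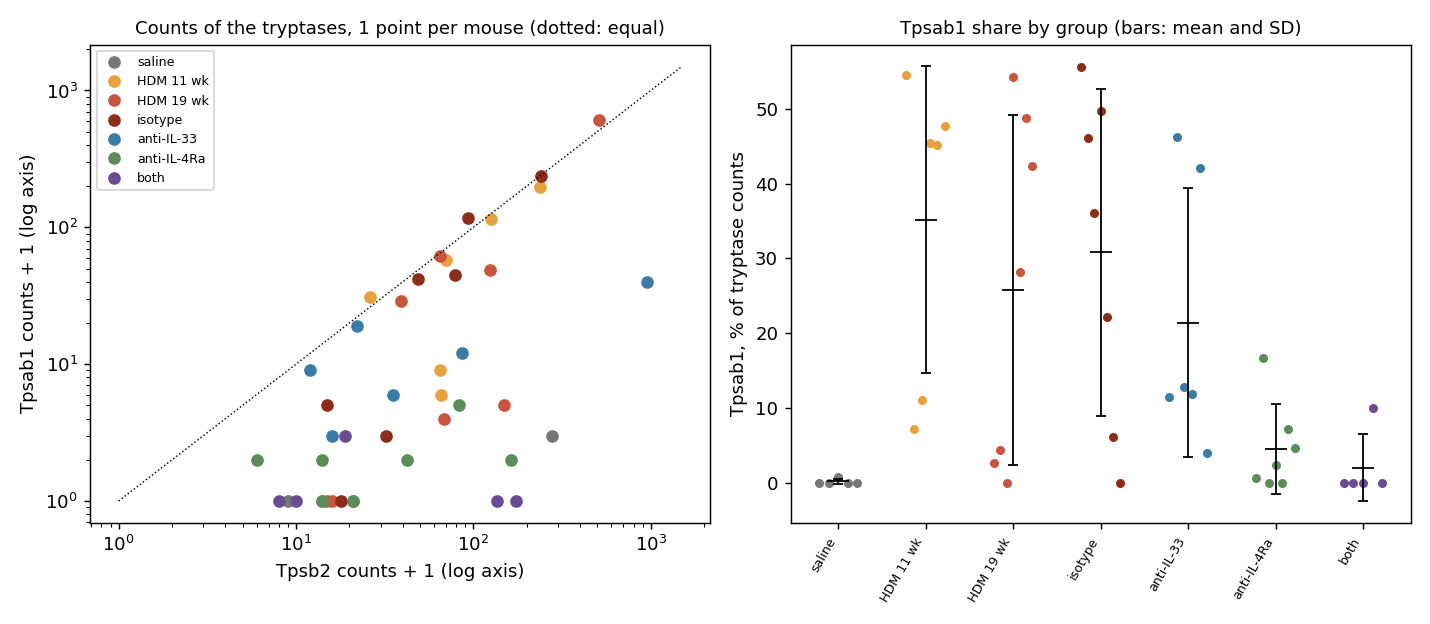
Left, rounded counts of Tpsab1 against Tpsb2 plus 1 on log axes, 1 point per mouse, with a dotted line of equal counts. Right, the share of Tpsab1 in the tryptase counts of each mouse, with bars at the group mean and SD; shares above 20% occur at 11 and 19 weeks of HDM, with isotype and with anti-IL-33, and none occurs in saline or in the groups given anti-IL-4Ra.

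Tpsb2 was present in all mice, saline included. It was at 0.672, 0.441, 9.60, 0.778 and 0.429 CPM in saline, where replicate 3 stood far above the others. At 11 weeks it ran from 1.40 through 4.00 to 12.5 CPM, at 19 weeks from 1.13 through 5.0 to 26.4 CPM and with isotype from 0.726 through 2.20 to 13.7 CPM. All mice at 11 and 19 weeks exceeded the 4 saline mice other than replicate 3, the isotype group overlapped with those 4 too, and Tpsb2 did not pass the test at 11 weeks (1.10 ± 1.11, adjusted p = 0.599), at 19 weeks (1.61 ± 1.10, adjusted p = 0.248) or with isotype (0.64 ± 1.08, adjusted p = 0.696). Without that replicate, which also held the markers of squamous epithelium, fat and muscle (1960 CPM), the difference was 3.14 at 11 weeks (adjusted p = 0.104) and 3.64 at 19 weeks (adjusted p = 0.0288). It was then also called with anti-IL-33 (4.26, adjusted p = 0.0134) and with both antibodies (3.22, adjusted p = 0.0422) against saline.

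Under antibodies Tpsb2 varied by more than an order of magnitude between mice of a group. With anti-IL-33 it ran from 0.692 through 2.10 to 58.2 CPM, with anti-IL4Ra from 0.393 through 1.83 to 21.6 CPM, and with both it was at 16.2, 0.599, 0.320, 1.09 and 10.4 CPM. The high mice were replicate 7 of anti-IL-33, replicate 2 of anti-IL4Ra and replicates 1 and 8 of the combination. Squamous markers in them summed to 2.27, 2.54, 84.4 and 2.55 CPM, and fat markers to 8.97, 67.0, 518 and 561 CPM. The part of such tissue in the Tpsb2 values was not tested. Against isotype Tpsb2 differed by 1.59 ± 1.0, 0.26 ± 0.98 and 0.59 ± 1.05 in the 3 groups (adjusted p = 0.349, 0.90 and 0.683). None of these directions was stable. The first turned to -1.0 without replicate 7 of anti-IL-33. The others turned to -0.69 and -0.67 after adjustment for GC slope, and to -1.54 and -3.02 without libraries of steep GC slope. Replicate 2 of anti-IL4Ra and replicates 1 and 8 of the combination had GC slopes of 1.03, 0.959 and 0.912.

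The connective tissue chymases Mcpt4 and Cma1 did not pass the test against saline with HDM alone. Mcpt4 was at 1.30, 0.496, 10.2, 1.17 and 0.495 CPM in saline and ran from 0.728 through 1.45 to 5.57 CPM at 11 weeks and from 0.375 through 1.02 to 13.3 CPM at 19 weeks. Cma1 was at 1.82, 1.49, 7.74, 1.32 and 2.34 CPM in saline and ran from 1.18 through 2.39 to 5.47 CPM and from 0.448 through 0.661 to 20.7 CPM. The highest mouse was Saline replicate 3 and replicate 6 of 19 weeks in both genes. Mcpt4 differed from saline by -0.37 ± 0.93 at 11 weeks and -0.05 ± 0.90 at 19 weeks, and Cma1 by -0.16 ± 0.87 and 0.30 ± 0.85 (adjusted p = 0.80 to 0.97 over the 4 tests).

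Single mice decided the sign at both times. Without Saline replicate 3 the differences at 11 weeks were 1.28 for Mcpt4 and 0.59 for Cma1 (adjusted p = 0.458 and 0.743). Without replicate 6 of 19 weeks, Cma1 was lower than saline by -1.95 and passed the test (adjusted p = 0.0372), and Mcpt4 differed by -1.68 (adjusted p = 0.122). Without Saline replicate 3 the differences at 19 weeks were 1.05 for Cma1 and 1.61 for Mcpt4 (adjusted p = 0.374 and 0.195). In replicate 6 of 19 weeks squamous, fat and muscle markers summed to 0.883, 12.2 and 3.48 CPM, within or below the range of the other 19-week libraries.

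With anti-IL4Ra Cma1 ran from 0.275 through 0.550 to 0.934 CPM, below all 5 saline mice in all 7 mice (-2.38 ± 0.91, adjusted p = 0.0316). That call was lost without Saline replicate 3 (-1.63, adjusted p = 0.153), without replicate 6 or 7 of anti-IL4Ra (adjusted p = 0.0546 and 0.0506), after adjustment for GC slope (0.0975) and without libraries of steep GC slope (0.0664). With both antibodies Cma1 was at 0.559, 0.533, 0.229, 0.728 and 1.31 CPM, also below all saline mice, and did not pass in edgeR (-2.15 ± 1.0, adjusted p = 0.0712). It was called lower there by DESeq2 (-2.12, adjusted p = 0.0396) and by edgeR on the compared groups alone (-2.14, adjusted p = 0.0241), and was -1.41 without Saline replicate 3 (adjusted p = 0.246). Against isotype, where Cma1 ran from 0.104 through 1.0 to 4.6 CPM, the differences were -1.39 ± 0.86 and -1.16 ± 0.95 (adjusted p = 0.469 and 0.341), and with anti-IL-33 the difference was 1.05 ± 0.82 (adjusted p = 0.422), which turned to -0.95 without replicate 7. Mcpt4 differed from isotype by 2.02 ± 0.89 with anti-IL-33 (adjusted p = 0.267), which became 0.24 without replicate 7. With anti-IL4Ra and with both antibodies it differed by -0.32 ± 0.92 and 0.68 ± 0.95 (adjusted p = 0.867 and 0.592). Against saline, Mcpt4 with anti-IL4Ra differed by -1.78 ± 0.96 (adjusted p = 0.123), and by -2.89 without replicate 2 of that group (adjusted p = 0.0222).

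Cpa3 is a carboxypeptidase of most mast cells and of basophils. It was at 1.49, 0.771, 9.15, 1.09 and 0.726 CPM in saline and ran from 2.02 through 2.50 to 5.57 CPM at 11 weeks, so that all 6 mice at 11 weeks exceeded the 4 saline mice other than replicate 3. The difference was 0.19 ± 0.84 (adjusted p = 0.92), and 1.57 without Saline replicate 3 (adjusted p = 0.283). At 19 weeks Cpa3 ran from 0.298 through 1.05 to 12.8 CPM (0.01 ± 0.81, adjusted p = 0.991) and with isotype from 0.467 through 1.06 to 1.95 CPM (-1.27 ± 0.82, adjusted p = 0.269). Without Saline replicate 3 these became 1.39 and 0.11, and without replicate 6 of 19 weeks the former became -1.45 (adjusted p = 0.208, 0.94 and 0.133). Under antibodies the medians were 1.48 CPM with anti-IL-33, 0.659 CPM with anti-IL4Ra and 2.06 CPM with both, and none passed the test against isotype (adjusted p = 0.329, 0.868 and 0.256).

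Mcpt8, the basophil protease, was too low to pass the count filter. It was at 0.144, 0.386, 0.0691, 0.544 and 0.462 CPM in saline. It ran from 0.117 through 0.276 to 0.496 CPM at 11 weeks, from 0 through 0.0508 to 0.363 CPM at 19 weeks, from 0 through 0.0518 to 0.455 CPM with isotype and from 0.123 through 0.397 to 0.870 CPM with anti-IL-33. Counts over a group were 12 to 45, so single mice rest on few reads. Without the count filter Mcpt8 differed from saline by -0.13 ± 0.64 at 11 weeks and -1.50 ± 0.66 at 19 weeks (adjusted p = 0.973 and 0.086), and between anti-IL-33 and isotype by 1.55 ± 0.63 (adjusted p = 0.312). Without Saline replicate 3 it passed the filter and was lower than saline at 19 weeks (-1.74, adjusted p = 0.0386).

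The IgE receptor chains did not follow the mucosal chymases. Fcer1a, the chain that binds IgE, was at 0.240, 0.165, 0.691, 0.233 and 0.231 CPM in saline, from 0.336 through 0.533 to 0.801 CPM at 11 weeks and from 0 through 0.297 to 0.935 CPM at 19 weeks. It differed from saline by 0.72 ± 0.70 and 0.28 ± 0.69 (adjusted p = 0.583 and 0.764), and by -0.13 at 19 weeks without replicate 6. Limma voom called it higher at 11 weeks (1.16, adjusted p = 0.0221). With isotype it was lower in value, from 0.0455 through 0.0947 to 0.318 CPM, and with anti-IL-33 it ran from 0.0629 through 0.601 to 2.03 CPM. That difference, 2.48 ± 0.69, had an unadjusted p under 0.05 and did not pass over all genes (adjusted p = 0.246). It was 1.96 without replicate 7 (adjusted p = 0.111). With anti-IL4Ra and with both antibodies Fcer1a differed from isotype by 1.21 ± 0.73 and 1.41 ± 0.76 (adjusted p = 0.454 and 0.157). The former was -0.15 without libraries of steep GC slope.

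Ms4a2, the signal-amplifying beta chain, was at 0.384, 1.16, 0.345, 1.13 and 1.09 CPM in saline, from 0.526 through 0.914 to 1.68 CPM at 11 weeks, from 0 through 0.225 to 1.66 CPM at 19 weeks and from 0.0965 through 0.403 to 0.637 CPM with isotype. It was the 1 tested member besides Mcpt1 and Mcpt2 for which Saline replicate 3 was not the highest saline mouse. It differed from saline by 0.28 ± 0.71, -0.92 ± 0.70 and -1.24 ± 0.71 (adjusted p = 0.854, 0.303 and 0.203), and at 19 weeks by -1.86 without replicate 6 (adjusted p = 0.0398). Limma voom called it lower at 19 weeks (-1.36, adjusted p = 0.0126) and with isotype (-1.71, adjusted p = 0.00052), and edgeR on the compared groups alone did so with isotype (-1.24, adjusted p = 0.0296). Against isotype it differed by 0.92 ± 0.70, 0.60 ± 0.70 and 1.13 ± 0.73 in the anti-IL-33, anti-IL4Ra and combined groups, and none passed (adjusted p = 0.411, 0.69 and 0.235).

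**Figure D3:**
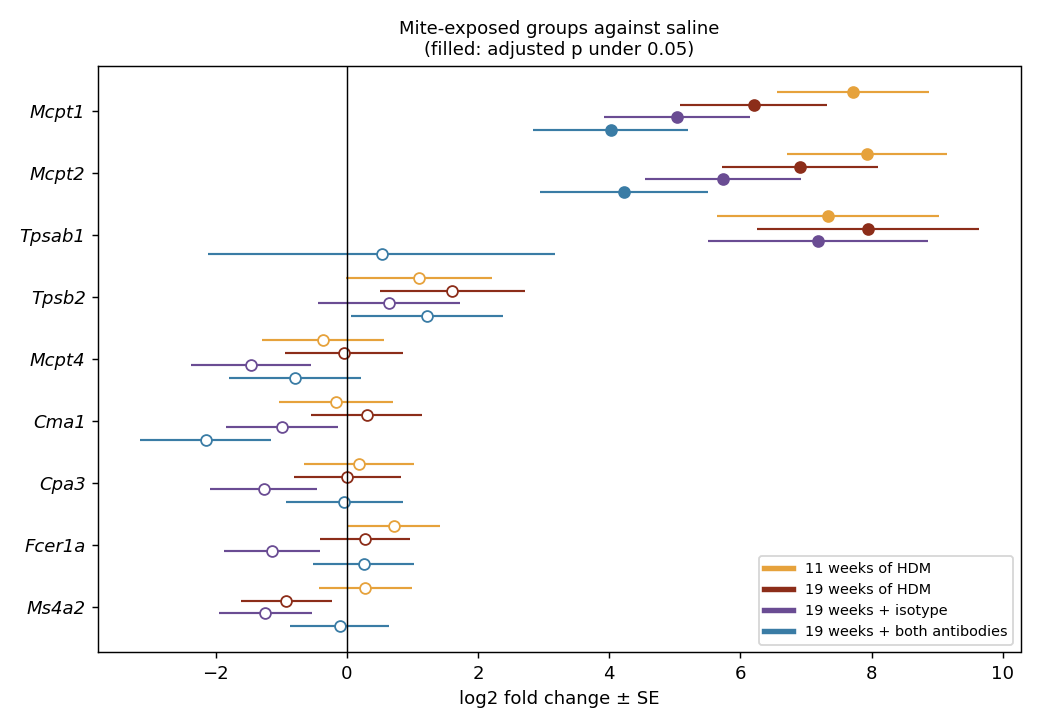
Log2 fold change against saline (point) with its standard error (bar) for the 9 genes tested, at 11 weeks of HDM, at 19 weeks, and at 19 weeks with isotype or with both antibodies. Filled points have an adjusted p under 0.05: Mcpt1 and Mcpt2 in all 4 groups and Tpsab1 in the 3 groups without anti-IL-4Ra; fitted values of Mcpt2 and Tpsab1 rest on 3 and 2 saline counts and depend on the prior count.

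**Figure D4:**
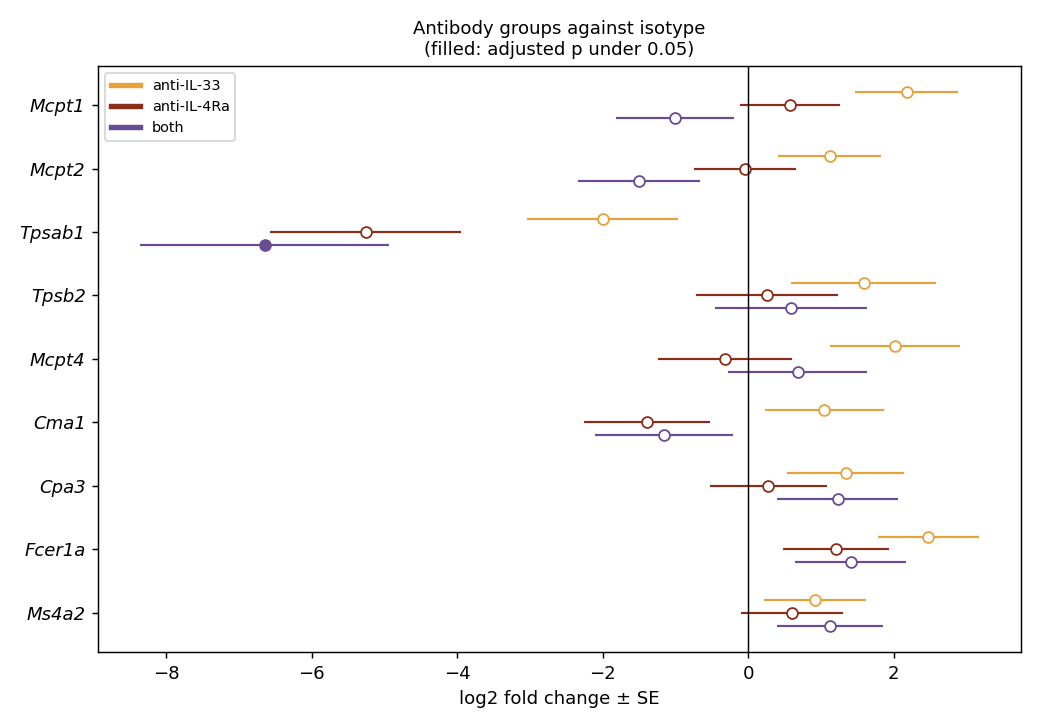
Log2 fold change against isotype (point) with its standard error (bar) for the 9 genes tested, with anti-IL-33, with anti-IL-4Ra and with both antibodies at 19 weeks of HDM. The single filled point, with an adjusted p of 0.0155, is Tpsab1 with both antibodies, whose fitted value rests on 2 counts in that group and depends on the prior count.

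Mucosal and connective tissue genes were set against each other within each mouse, as log2 CPM of Mcpt1 and Mcpt2 summed minus the mean log2 CPM of Mcpt4, Cma1, Tpsb2, Tpsab1 and Cpa3. The difference was -2.77 ± 1.57 (SD, n = 5) in saline, where it was below 0 in all mice, and 2.66 ± 0.34 (n = 6) at 11 weeks, where it was above 2 in all mice. It was 1.65 ± 1.26 (n = 7) at 19 weeks and 1.29 ± 1.02 (n = 7) with isotype. With antibodies it was 0.75 ± 2.29 (n = 6) for anti-IL-33, 2.47 ± 0.91 (n = 7) for anti-IL4Ra and 0.89 ± 0.90 (n = 5) for both. No p is given, since the genes were chosen with results of these data known. The connective tissue set follows the common description of these genes, and Tpsab1, near 0 in saline, did not follow the rest of the set there. Leaving out Tpsab1 gave -3.69 ± 1.75 in saline, 1.90 ± 1.03 with anti-IL4Ra and 0.04 ± 1.25 with both antibodies.

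**Figure D5:**
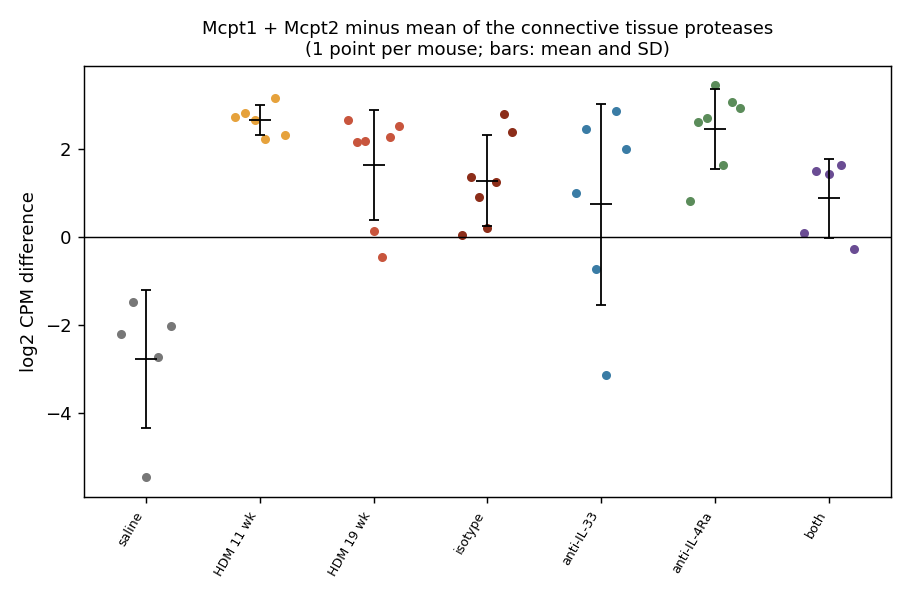
Difference between log2 CPM of Mcpt1 plus Mcpt2 and the mean log2 CPM of Mcpt4, Cma1, Tpsb2, Tpsab1 and Cpa3, 1 point per mouse, with bars at the group mean and SD. All 5 saline mice lie below 0 and all 6 mice at 11 weeks of HDM above 2; replicate 5 of anti-IL-33, at -3.12, had no Mcpt1 or Mcpt2 count.

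Levels of different genes were compared as mean CPM per kb of the longest transcript. In saline the order began with Cma1 (2.70), Mcpt4 (2.46), Tpsb2 (1.85) and Cpa3 (1.83), and ended with Mcpt1 (0.0402), Mcpt2 (0.0268) and Tpsab1 (0.00717). At 11 weeks Mcpt1 (9.74) and Mcpt2 (7.27) came first, ahead of Tpsb2 (4.02). At 19 weeks Tpsb2 (5.72) came first, with Mcpt2 (3.57) and Mcpt1 (3.40) next, and with both antibodies Tpsb2 (4.44) and Cpa3 (1.82) led while Tpsab1 (0.0126) was last. Means over groups with a single high mouse, such as Tpsb2 at 19 weeks, follow that mouse.

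Across the 43 libraries, which share group and depth, Mcpt1 and Mcpt2 varied together (Pearson r = 0.95, Spearman rho = 0.941), and Mcpt1 and Mcpt4 did so weakly (r = 0.225, rho = 0.204). Mcpt4 varied with Cpa3 (r = 0.84), Tpsb2 (r = 0.807), Cma1 (r = 0.79) and Fcer1a (r = 0.704). Tpsab1 stood between the sets, with r = 0.613 to Mcpt1, 0.666 to Mcpt2 and 0.547 to Tpsb2. Ms4a2 had its highest values with Cpa3 (r = 0.644) and Mcpt8 (r = 0.584). These values describe the libraries. The GC slope of a library had r between -0.0645 and -0.0099 with Mcpt1, Mcpt2 and Tpsab1, 0.422 with Tpsb2 and -0.395 with Ms4a2.

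Genes outside the members whose log2 CPM was most like that of Mcpt1 plus Mcpt2 over the 43 libraries were Cfi (r = 0.818), Mmp12 (0.809), Corin (0.801), Snx7 (0.795) and Msx3 (0.791). For the mean of Mcpt4, Cma1, Tpsb2 and Cpa3 they were Tph1 (0.644), Sfrp5 (0.611), Nlrp10 (0.567), Asb11 (0.55) and Vsig4 (0.542). Tph1 encodes an enzyme of serotonin synthesis that mast cells use.

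Other mast cell and basophil genes were followed in a list of 22, of which 16 were tested. At 11 weeks 6 were higher than saline and none lower (8.65% and 6.74% of all genes), with a median log2 fold change of 0.69, against 0.003 for all genes. They included Adora3, an adenosine receptor, at 13.3 ± 3.0 CPM against 1.22 ± 0.637 (3.45 ± 0.34, adjusted p = 1.7e-09), and Il1rl1, the IL-33 receptor, at 40.2 ± 14.3 against 5.18 ± 0.934 CPM (2.96 ± 0.57, adjusted p = 0.000238). Cyp11a1, an enzyme of steroid synthesis, rose by 1.89 ± 0.46 and Hdc, which makes histamine, by 1.46 ± 0.35 (adjusted p = 0.00345 and 0.00234). These genes are also expressed by other cells of the inflamed lung. Kit, the receptor for stem cell factor, was at 110 ± 19.2 CPM against 139 ± 28.7 (-0.34 ± 0.50, adjusted p = 0.74). At 19 weeks (19.2% of all genes higher, 15.6% lower) and with isotype (13% and 12.4%) 6 of the 16 were higher and 1 lower, Gata2, a transcription factor of mast cells, at 21.9 ± 8.53 and 20.1 ± 7.81 CPM against 59.1 ± 14.1 (adjusted p = 0.0062 and 0.00363). Which cells the Gata2 RNA came from cannot be told in whole lung.

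With both antibodies against isotype, 3 of the 16 were higher and 2 lower, while 12.6% of all genes were higher and 6.32% lower (19% in all). Gata2 was higher by 1.83 ± 0.41 (adjusted p = 0.0075), as were Ltc4s (1.62 ± 0.51, adjusted p = 0.0319) and Alox5 (1.42 ± 0.34, adjusted p = 0.0115), both enzymes of leukotriene synthesis. Lower were Il1rl1, at 6.16 ± 5.54 against 25.3 ± 5.21 CPM (-2.03 ± 0.54, adjusted p = 0.0173), and Cyp11a1, at 0.464 ± 0.19 against 2.30 ± 1.22 CPM (-2.31 ± 0.48, adjusted p = 0.00549). Neither single antibody gave a call in this list against isotype in edgeR. Fat markers summed to 29.2 to 561 CPM with both antibodies and to 9.38 to 29.9 CPM with isotype, all 7 of them were called higher, and 3 of the 5 combination libraries had a steep GC slope. The part of fat and GC slope in these list results was not tested.

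Of 15 genes for growth and homing of mast cells, 12 were tested. At 11 weeks, where 8.65% of all genes were higher, Itgae, the integrin chain that holds cells in epithelium, was the 1 called, at 14.0 ± 2.34 against 5.73 ± 1.01 CPM (1.29 ± 0.26, adjusted p = 0.000504). At 19 weeks 3 were higher and 2 lower, near the 19.2% and 15.6% of all genes. Higher were Itgae (1.26 ± 0.26), Il3ra (3.39 ± 0.74) and Tgfb1 (2.98 ± 0.69). Lower were Kitl, which encodes stem cell factor, at 49.9 ± 24.8 against 228 ± 30.2 CPM (-2.19 ± 0.42, adjusted p = 0.000121), and the adhesion molecule Vcam1 (-0.74 ± 0.27, adjusted p = 0.0312). The mean GC slope was 0.155 at 19 weeks and -0.592 in saline, and its part in these list results was not tested. With both antibodies against isotype 1 was higher, the integrin chain Itgb7 (1.31 ± 0.45, adjusted p = 0.0421), where 12.6% of all genes were higher and 6.32% lower.

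Of 13 genes for IgE and signalling by its receptor, 12 were tested. At 11 weeks 6 were higher than saline (8.65% of all genes), at 19 weeks 4 (19.2%) and with isotype 5 (13%), and none was lower. Fcer1g, the gamma chain that mast cells share with other leukocytes, was at 87.0 ± 17.4 CPM at 11 weeks against 39.7 ± 10.4 in saline (1.13 ± 0.24, adjusted p = 0.000771). Syk, the kinase bound by that chain, rose by 1.07 ± 0.23 (adjusted p = 0.00105) and the adaptor Lat2 by 1.69 ± 0.31 (adjusted p = 0.000138). Fcer2a, the low-affinity IgE receptor of B cells, rose by 1.77 ± 0.52 (adjusted p = 0.0154). With both antibodies against isotype Lat2 was the 1 called, at 13.6 ± 3.82 against 27.7 ± 13.1 CPM (-1.02 ± 0.30, adjusted p = 0.0255). Of all genes, 6.32% were lower there and 12.6% higher, so 1 lower gene of 12 is near that share.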

How the data were processed

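Whole lung RNA of 43 mice was measured. Per the labels' protocols, strand-specific mRNA libraries from 500 ng of RNA were read as single reads of 33 cycles. The deposited table holds the authors' expected counts per NCBI Gene ID, of which 77.0% of the nonzero values are whole (tolerance 1e-06). The build was mm10, per the submitters' processing notes. Aligner, counter, annotation and use of strand: not given in the sources. Therefore reads of related or overlapping genes may be divided between them. Expected counts were rounded. edgeR 4.0.16 in R 4.3.3 (filterByExpr by group, TMM, robust quasi-likelihood fit of 7 group means over all 43 libraries, 36 residual degrees of freedom, BCV 0.431) gave 2-sided tests with Benjamini-Hochberg adjustment over 15979 genes. All group pairs named in the text and 1 interaction were tested, and the procedure was checked on simulated counts with 200 changed genes. Log2 CPM used a prior count of 1. The GC slope is that of a library's log2 CPM, relative to the mean of all libraries, per 10 percentage points of transcript GC content (24081 genes). Symbols, positions and upstream regions are from RefSeq GRCm38.p6, and transcripts from GENCODE M21 (GRCm38). Limits for a count of 0 use 3 counts. Ratios against 3 or fewer counts carry 95% exact intervals, computed with scipy 1.17.1 in Python 3.11.15. Alternatives were DESeq2 1.42.0, limma 3.58.1 voom, other size factors, no count filter, covariates, fewer libraries and leaving out each library. The text names all 10 members and, of each other list, up to 4 called genes per direction by size or examples, and the 5 most similar genes. Members and lists were chosen with earlier results of these data known.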

Additional observations from a re-analysis of the deposited data

Results flagged for a closer look

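In 11 of 70 sets of a gene in a group, 15.7%, a single mouse lay far from the others of its group by Dixon's criterion. The criterion flags about 5% of independent sets of normal values. These sets share libraries and some lie at the count floor, so 15.7% cannot be measured against that rate. Saline replicate 3 stood above the other saline mice in 4 genes: Tpsb2 at 9.60 CPM (others 0.429 to 0.778), Cpa3 at 9.15 CPM (0.726 to 1.49), Fcer1a at 0.691 CPM (0.165 to 0.240) and Tpsab1 at 0.0691 CPM (2 counts, others at 0). Squamous, fat and muscle markers in that library summed to 12500, 1250 and 1960 CPM, and their part was not tested. At 19 weeks of HDM, replicate 6 stood high in Mcpt4 at 13.3 CPM (others 0.375 to 1.42) and in Cma1 at 20.7 CPM (0.448 to 1.53). Replicate 7 of anti-IL-33 was high in Tpsb2 at 58.2 CPM (0.692 to 3.54), and replicate 2 of anti-IL4Ra in Mcpt4 at 4.00 CPM (0.183 to 0.551). Tpsab1 in replicate 5 of the combination, at 0.121 CPM, was 2 counts against 0 in the others. Low mice were replicate 6 of isotype in Mcpt1 at 0.415 CPM (others 1.18 to 2.30) and replicate 3 of the combination in Mcpt2 at 0.0457 CPM, 1 count (others 0.546 to 0.932).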

How the results depend on the processing

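Mcpt1 stayed called against saline in all 5 HDM groups of 19 weeks and at 11 weeks under every alternative that tested it, and Mcpt2 in all but 1 of these (with both antibodies, without libraries of steep GC slope). Limma voom with sample weights called 6 members at 11 weeks, 5 at 19 weeks and 5 with isotype against saline in place of 3, adding Tpsb2 in each, Cpa3 and Fcer1a at 11 weeks and lower Ms4a2 at 19 weeks and with isotype, and called 8619 to 10516 of all genes there. DESeq2 called 1 member with anti-IL4Ra against isotype (Tpsab1) and 1 between both antibodies and anti-IL-33 (Mcpt1), in place of 0, and added lower Cma1 with both antibodies against saline. With both antibodies against isotype the count of 1 became 0 in voom, without libraries of steep GC slope and with the replicate block. It was also 0 in a fit of the compared groups alone, where 6 members passed the filter and Tpsab1 was not among them. The count with both antibodies against saline became 1 without libraries of steep GC slope and 1 in the compared groups alone (Cma1 lower, with neither Mcpt1 nor Mcpt2 among the 5 members tested), and that with anti-IL-33 against saline became 0 in the compared groups alone, where also 5 members passed the filter. The replicate block changed no other call of a member. The replicate numbers share only a number: the median correlation of residuals was -0.0118 for the same number and 0.00779 for others. Leaving out each library gave 3 to 3 members at 11 weeks, 3 to 5 at 19 weeks, 3 to 3 with isotype, 3 to 4 with anti-IL-33, 2 to 4 with anti-IL4Ra and 2 to 3 with both antibodies against saline. It gave 0 to 1 for both antibodies against isotype and 0 to 0 in each other comparison. Cma1 at 19 weeks against saline turned from 0.30 to -1.95 without replicate 6 of 19 weeks and was 1.05 without Saline replicate 3, the extremes over left-out libraries. With library number above 956132 as a term, Tpsb2 was called at 19 weeks (4.40, adjusted p = 0.0281) and with anti-IL-33 (2.96, adjusted p = 0.0391) against saline. Without the 2 libraries high in squamous markers, an alternative chosen after seeing the data, Tpsb2 was called at 19 weeks (3.65), with anti-IL-33 (4.27) and with both antibodies (3.26) against saline, and Cma1 with anti-IL4Ra was not (-1.63). Leaving Tpsab1 out of the mucosal difference was also chosen after seeing the data. The cause of these changes was not tested. Groups with 2 to 8 counts of Tpsab1 or 3 of Mcpt2 limit the size of their ratios.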
